A study of Mus musculus with 8 samples.

Results

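The homing and egress receptors described here are 8 G protein-coupled receptor genes that steer T cells between blood, lymphoid organs and tissue: Ccr7, S1pr1, S1pr5, Cxcr3, Cxcr4, Cxcr6, Ccr2 and Cx3cr1. Their members were taken as all probe sets whose single platform gene symbol is one of these names, which gave 13 of the 45101 probe sets on the array and 8 of its 18193 singly named genes. Of the 13, 12 passed the filter on low signal and were among the 22518 probe sets tested. The exception was a dim second probe set of Cx3cr1.

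The study measured gene expression in age-associated clonal expansions, CD8 memory T cell populations of old mice that each carry a single T cell receptor. From each of 4 female mice, a clonal expansion and the polyclonal memory cells that lacked its receptor V beta chain were sorted from spleen and lymph nodes and hybridised to 1 Affymetrix Mouse Genome 430 2.0 array each, so that every expansion has a partner from its own animal. All cells were CD8+ CD122+ and MHC II-, and the labels name no transgene and no treatment. Each expansion is 1 clone from 1 animal, and the RNA went through a double amplification.

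Pair 1 came from a C57BL/10SnJ mouse of 20 months, and its TCR Vb3+ expansion belongs to the integrin alpha4-high subclass. The other 3 expansions belong to the alpha4-low subclass. Pair 2 came from a C57BL/10SnJ mouse of 20 months (expansion TCR Vb8.1/8.2+), pair 3 from a C57BL/10SnJ mouse of 23 months (TCR Vb8.3+) and pair 4 from a B10.BR mouse of 23 months (TCR Vb14+). The alpha4-high subclass is therefore a single pair, and strain B10.BR and mouse 4 cannot be told apart. The labels number the alpha4-low clones in more than 1 way, and each sample's own description was followed. Itga4, the integrin subunit gene that names the subclasses, gave a signal of 11824 in expansion 1 against 3182 in its partner, and of 197, 435 and 120 in expansions 2 to 4 against 2676, 8221 and 1559. Those values follow the labels.

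The background level, taken from probe sets for bacterial genes, lay between 33.7 and 61.9 on the 8 arrays, the median signal between 46.5 and 75.1, and 22050 to 30498 probe sets per array were above background. Of 8 CD8 T cell marker genes, 7 had a probe set, and all 7 were above background on all 8 arrays. The ratio of the 3′ to the 5′ actin probe set, a sign of RNA length, ran from 34.9 to 89.7. Of 7 erythroid and platelet markers, 4 had a probe set, with a summed signal of 124 to 434. Sort purity was 91 to 98% for the expansions, and 97, 75, 66 and 97% for polyclonal samples 1 to 4. The array of expansion 4 has a scan record that differs from the others, so an effect of that scan and one of the sample cannot be told apart. Fewer cells of a type and less RNA per cell cannot be told apart in these sorted populations.

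Naive and central memory T cells enter lymph nodes through CCR7, which reads the chemokines of the T cell zone, and leave through S1PR1, which reads sphingosine 1-phosphate in lymph and blood. Effector and resident cells use other receptors: CXCR3 and CXCR6 lead to inflamed tissue and liver, CCR2 to sites rich in monocyte chemokines, CX3CR1 marks cells that patrol vessels, and S1PR5 serves exit of effector and natural killer cells. The transcription factor KLF2 drives S1pr1, and T-bet and ZEB2 are known for their part in S1pr5 and Cx3cr1 expression.

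The promoters of the 3 genes whose brightest probe set had the widest range over the 4 expansions, Cx3cr1, Cxcr6 and S1pr5, are shown first. All 3 genes lie on chromosome 9, as does Ccr2. Each line holds the 250 bases before the RefSeq gene start in GRCm38.p6, read 5′ to 3′ on the gene's strand. Capitals mark the letters CACCC, found in sites of Kruppel-like factors, searched on both strands together with the T-box letters TCACAC and the ZEB letters CACCTG. These letter strings do not overlap one another in the windows shown. The Cx3cr1 window is chr9:120068297-120068546 on the minus strand, the Cxcr6 window chr9:123806227-123806476 on the plus strand and the S1pr5 window chr9:21248444-21248693 on the minus strand.
Cx3cr1: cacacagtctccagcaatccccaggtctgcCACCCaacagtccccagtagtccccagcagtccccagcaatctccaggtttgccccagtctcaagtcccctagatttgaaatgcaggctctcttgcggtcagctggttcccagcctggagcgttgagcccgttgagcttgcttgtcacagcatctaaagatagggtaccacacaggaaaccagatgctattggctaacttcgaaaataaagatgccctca
Cxcr6: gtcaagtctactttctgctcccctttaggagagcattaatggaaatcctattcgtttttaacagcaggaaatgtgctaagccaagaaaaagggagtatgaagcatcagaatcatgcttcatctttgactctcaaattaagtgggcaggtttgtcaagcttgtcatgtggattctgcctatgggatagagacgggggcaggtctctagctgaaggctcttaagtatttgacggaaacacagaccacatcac
S1pr5: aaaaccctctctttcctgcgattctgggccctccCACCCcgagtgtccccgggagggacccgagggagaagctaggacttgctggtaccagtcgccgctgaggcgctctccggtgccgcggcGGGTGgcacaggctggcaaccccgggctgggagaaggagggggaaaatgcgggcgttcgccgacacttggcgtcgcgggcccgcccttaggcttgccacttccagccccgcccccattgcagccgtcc
The S1pr5 window held CACCC 2 times and the Cx3cr1 window 1 time, while the Cxcr6 window held none of the 3 strings. RefSeq sequences were matched for 6 of the 8 genes. Of the other 3 matched genes, Cxcr4 held CACCC 1 time, Cxcr3 held TCACAC 1 time and CACCTG 1 time, and Ccr2 held none of the 3. Over all 32851 promoters, 52.0% of such windows hold CACCC, 12.3% TCACAC and 17.2% CACCTG, so these matches are a description of the sequences only.

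None of the 8 receptor genes passed the test for a difference between expansions and their partners. The differences varied between pairs. Cxcr6 was 9.24-fold lower in expansion 1 than in its partner, and Ccr2 was 3.56-fold higher there. Cx3cr1 ran from 4284 to 59.2 over the 4 expansions. S1pr5 in expansion 3 was 11.8-fold above its partner, which was the lowest polyclonal sample. These folds are on the scale of log2(signal + 5) and understate changes of dim probe sets. In paired limma models, 0 of the 12 tested probe sets passed an adjusted p of 0.05 over all 4 pairs, where 0% of all tested probe sets passed. At an unadjusted p under 0.05 the count over all pairs was 0, against 3.25% of all tested probe sets. For the alpha4-low pairs 0 of 12 passed the adjusted threshold, against 0.0533% of all, and for the difference between the subclasses 0 of 12 passed, also against 0.0533%.

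Those limma adjusted p-values were 0.9998 for each receptor over all pairs, ran from 0.941 to 0.999 for the alpha4-low pairs and from 0.336 to 0.9997 for the subclass difference. At an unadjusted limma p under 0.05, 1 of 12 was reached in the alpha4-low pairs (S1pr5), where 5.11% of all tested probe sets were, and 4 of 12 in the subclass difference (both Cxcr6 probe sets and 2 of the 4 for Ccr2), where 6.57% were. The 4 expansions and the 4 polyclonal samples were free of overlap for 0 of the 12 probe sets, against 1.35% of all tested probe sets. The 3 alpha4-low expansions and their 3 partners were free of overlap for 0 of 12 as well, against 8.1%. The sign was the same in all 4 pairs for 0 of 12, against 10.8% of all.

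**Figure D1:**
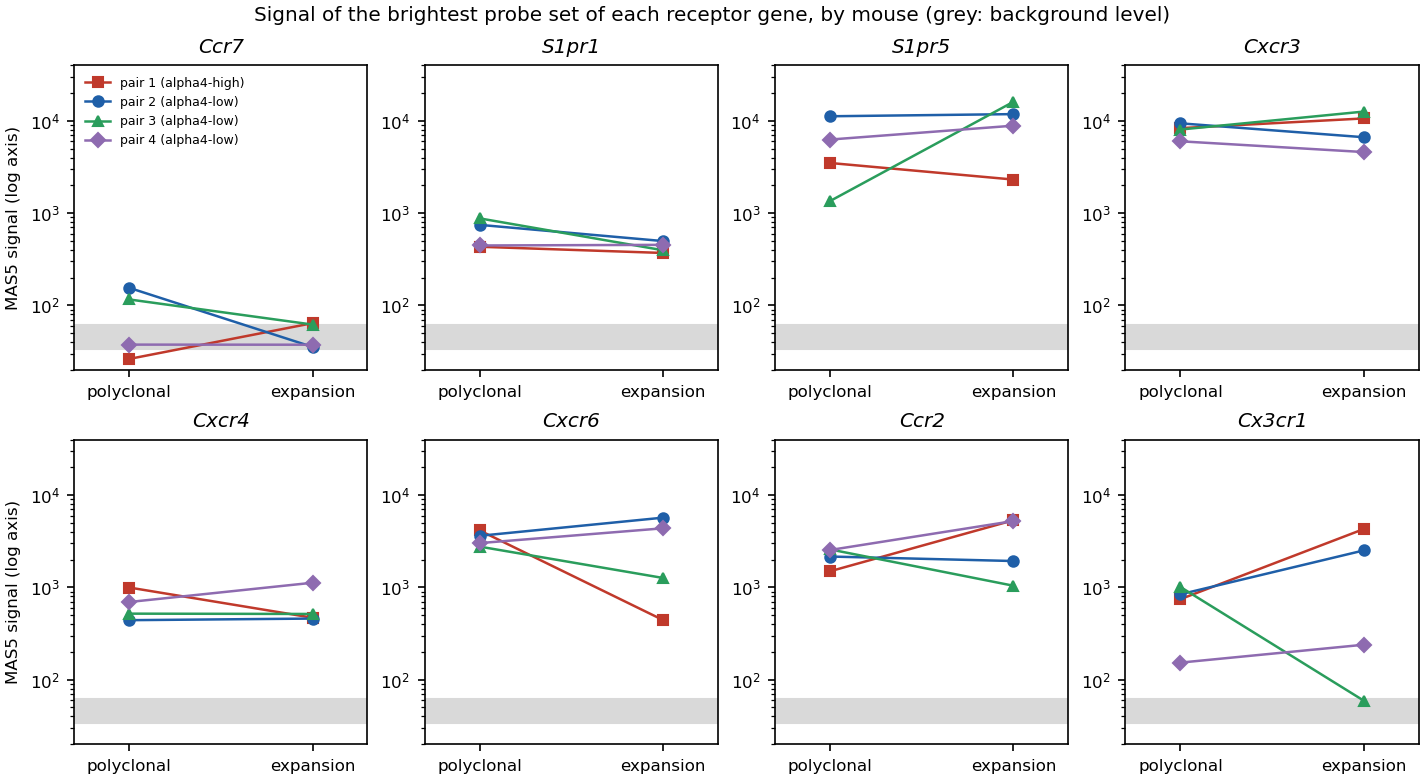
MAS5 signal on a log axis of the brightest probe set of each receptor gene in the polyclonal sample and the expansion of each mouse, with a line joining the samples of a mouse and the range of the background levels in grey. The lines cross in most panels, and Cx3cr1 spreads from 59.2 to 4284 over the expansions while Cxcr6 drops in pair 1 from 4138 to 443.

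Lymph node entry comes first. Ccr7, which encodes the receptor for entry into lymph nodes and their T cell zone, was dim in all samples. Its signal was 64.2, 35.5, 62.0 and 37.5 in expansions 1 to 4 and 26.3, 155, 116 and 37.6 in their partners. It exceeded background on 5 of the 8 arrays, those of expansions 1, 3 and 4 and of polyclonal samples 2 and 3. The higher values therefore lay in the partners of pairs 2 and 3, and in the expansion of pair 1, while both samples of pair 4 were alike and the groups overlapped.

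The log2 differences of Ccr7 in pairs 1 to 4 were 1.15, -1.99, -0.86 and 0.00. Where a sample was not above background the fold is a bound against that level: at least 1.3-fold higher in the expansion in pair 1 and at least 2.83-fold higher in the partner in pair 2. The alpha4-low difference was -0.95 (SE 0.63, 95% interval -2.32 to 0.43, limma adjusted p = 0.988). It was -0.43 without pair 2 and -0.28 with sort purity as a covariate. Polyclonal samples 2 and 3, in which Ccr7 was highest, are also those of lowest sort purity, 75 and 66%. With purity as a covariate the difference over all pairs was 0.30, against -0.42 without it. Of 10 B cell markers 9 had a probe set and 5 to 8 were above background on each array. Their summed signal was 3710 in expansion 1, 3161 to 4156 in the alpha4-low expansions and 2199 to 4743 in the polyclonal samples, with the highest sum in polyclonal sample 2 and the lowest in polyclonal sample 3. Ms4a1 and Cd22 made up most of these sums, and Pax5 was above background on 2 arrays. Of 6 CD4 and regulatory T cell markers all 6 had a probe set, and their sum was 419 in expansion 1, 336 to 558 in the alpha4-low expansions and 335 to 1587 in the polyclonal samples, with the highest sum in polyclonal sample 3. Cd4 itself was above background in polyclonal samples 2 and 3 alone. The part of these cells in the Ccr7 values was not tested.

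Egress receptors come next. S1pr1, the receptor that lets T cells leave lymph nodes along the sphingosine 1-phosphate gradient, was the steadiest of the 8 genes over the clones. Its signal was 370, 498, 396 and 453 in expansions 1 to 4 and 432, 746, 877 and 446 in the partners. The expansions lay within 1.34-fold of each other and the polyclonal samples within 2.02-fold, with partners 2 and 3 the highest. The paired log2 differences were -0.22, -0.58, -1.14 and 0.02, lower in 3 of 4 expansions. The alpha4-low difference was -0.57 (SE 0.42, 95% interval -1.48 to 0.35, limma adjusted p = 0.989), and 0.09 with sort purity as a covariate.

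S1pr5, the sphingosine 1-phosphate receptor of effector and natural killer cells, was far above background in all 8 samples. It read 2310, 11819, 16049 and 8856 in expansions 1 to 4 and 3493, 11203, 1351 and 6266 in the partners. The 3 alpha4-low expansions, at 12241 ± 3615 (SD, n = 3), were all above expansion 1, but their partners ranged from 1351 to 11203 and overlapped with them. The lowest of all 8 values was that of polyclonal sample 3, whose own expansion was the highest. The summed signal of the NK cell markers was also lower in polyclonal samples 1 and 3, at 3418 and 2468, than in polyclonal samples 2 and 4, at 21848 and 32910. In expansions 1 to 4 that sum was 6231, 2168, 435 and 4873, lowest in expansion 3, where S1pr5 was highest. Klra8 and Klre1 made up most of the sum in the polyclonal samples. The defining NK marker Ncr1 was not above background on any array. The part of NK cells in the S1pr5 values was not tested.

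In pairs 1 to 4 the log2 differences of S1pr5 were -0.60, 0.08, 3.57 and 0.50. Thus the 11.8-fold difference of pair 3 stood against 1.05-fold and 1.41-fold in the other alpha4-low pairs. The alpha4-low estimate was 1.38 (SE 0.57, 95% interval 0.15 to 2.61, limma unadjusted p = 0.0311, adjusted p = 0.941). It was 0.29 without pair 3 and -0.13 with sort purity as a covariate, and over all pairs it was 0.89, or -0.01 without pair 3. Polyclonal sample 3 had the lowest purity, 66%, and the part of that sample's makeup in the pair 3 value was not tested.

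Receptors for chemokines of inflamed tissue and of bone marrow follow. Cxcr3, which encodes the receptor for interferon-induced chemokines on memory CD8 cells, read 10611, 6643, 12592 and 4588 in expansions 1 to 4 and 8332, 9391, 8045 and 6000 in the partners. Expansions 1 and 3 were above their partners and expansions 2 and 4 below, by log2 differences of 0.35, -0.50, 0.65 and -0.39. The means were 8609 ± 3647 in expansions and 7942 ± 1418 in polyclonal samples (SD, n = 4 each). The alpha4-low difference of -0.08 had the narrowest interval of the 12 probe sets, -0.90 to 0.74 (SE 0.38, limma adjusted p = 0.997).

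Cxcr4, the receptor for the bone marrow chemokine CXCL12, read 469, 459, 515 and 1122 in expansions 1 to 4 and 996, 441, 519 and 694 in the partners. Expansion 4 was the highest and the only expansion above the polyclonal range, while pairs 2 and 3 were nearly equal. The log2 differences were -1.08, 0.05, -0.01 and 0.69. The subclass difference was 1.32 (SE 0.83, 95% interval -0.47 to 3.12, limma adjusted p = 0.943), and 0.45 with no replicate block.

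Cxcr6, which encodes the receptor for CXCL16 and serves residence of memory CD8 cells in liver and other tissues, was even among the polyclonal samples and uneven among the clones. The brighter probe set, 1422812_at, read 443, 5690, 1265 and 4364 in expansions 1 to 4 and 4138, 3619, 2764 and 3017 in the partners. The second, 1425832_a_at, read 380, 4271, 583 and 1811 in the expansions and 2965, 2512, 1542 and 1807 in the partners. In both, expansions 1 and 3 lay below all 4 polyclonal samples and expansion 2 above all 4; expansion 4 lay above all 4 only for 1422812_at.

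Over the expansions the brighter Cxcr6 probe set ranged 12.7-fold and over the polyclonal samples 1.5-fold, with an SD of log2 values of 1.70 and 0.26. The paired log2 differences of 1422812_at were -3.21, 0.65, -1.13 and 0.53, and those of 1425832_a_at -2.95, 0.76, -1.40 and 0.00. Pair 1 and pair 3 thus had the same sign although their clones belong to different subclasses. The alpha4-low difference of 1422812_at was 0.02 (SE 0.45, 95% interval -0.96 to 1.0, limma adjusted p = 0.999).

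The alpha4-low difference of Cxcr6 exceeded the alpha4-high one by 3.23 for 1422812_at (SE 0.90, 95% interval 1.27 to 5.18, limma unadjusted p = 0.00353, adjusted p = 0.347) and by 2.74 for 1425832_a_at (SE 0.94, adjusted p = 0.529). Neither passed over all tested probe sets. With sort purity as a covariate the values were 4.35 and 3.58, and with no replicate block 2.82 and 2.11. Without pair 3 the values were 3.80 and 3.33 (limma adjusted p = 0.000269 and 0.00468), a fit that rests on pairs 2 and 4 against pair 1 with 1 residual degree of freedom. In that fit 3 of the 12 receptor probe sets passed, against 1.23% of all tested probe sets, the third being Ccr2 1460067_at. Pair 3 is the alpha4-low pair in which Cxcr6 was also lower in the expansion, so leaving it out removes the value nearest to pair 1.

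**Figure D2:**
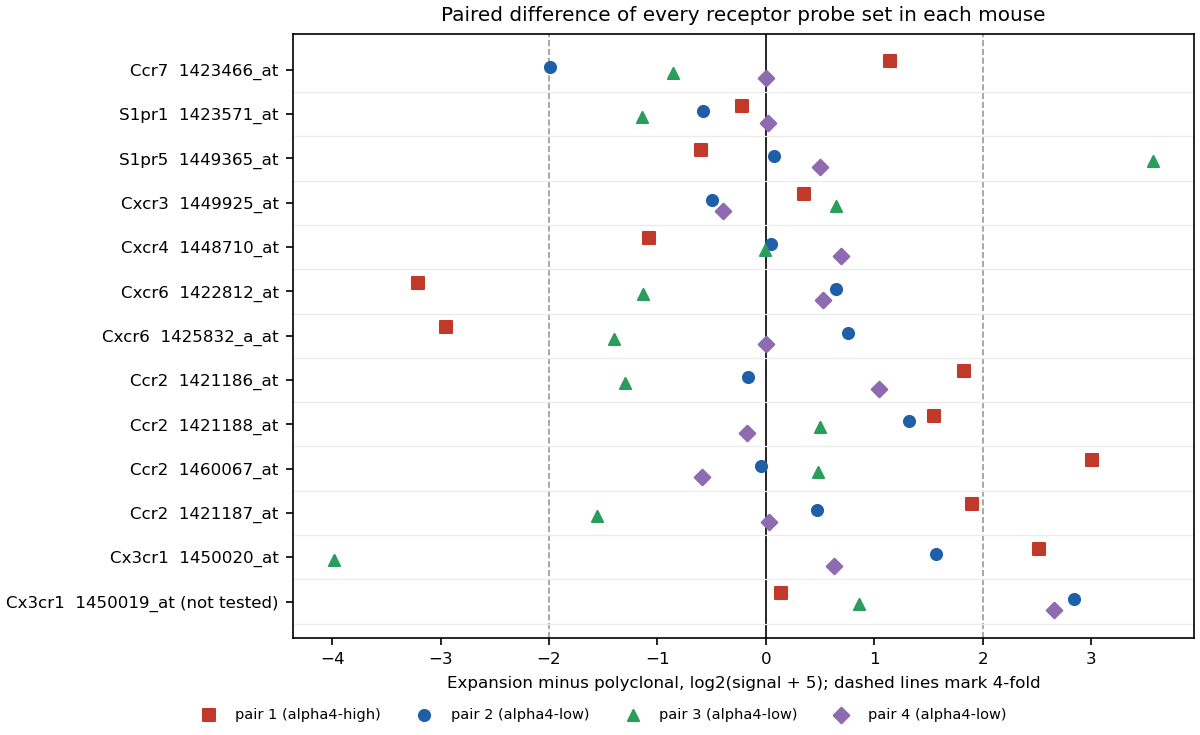
Expansion minus polyclonal difference in log2(signal + 5) for each of the 13 receptor probe sets in each of the 4 mice, with dashed lines at a 4-fold difference. The Cxcr6 probe sets lie at -3.21 and -2.95 in pair 1, all 4 Ccr2 probe sets are highest there, and Cx3cr1 1450020_at runs from -3.98 in pair 3 to 2.52 in pair 1.

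Ccr2 encodes the receptor for monocyte chemoattractant chemokines, carried by monocytes and by effector and memory T cells, and was measured by 4 probe sets. The brightest, 1421186_at, read 5332, 1929, 1042 and 5230 in expansions 1 to 4 and 1494, 2158, 2578 and 2539 in the partners. Expansions 1 and 4 lay above all polyclonal samples and expansions 2 and 3 inside or below their range. The log2 differences of this probe set were 1.83, -0.16, -1.30 and 1.04.

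The other Ccr2 probe sets shared the pair 1 difference and disagreed elsewhere. For 1460067_at the signal was 993, 349, 417 and 562 in the expansions and 119, 359, 298 and 848 in the partners. For 1421188_at it was 2036, 718, 698 and 823 against 692, 284, 492 and 928, and for 1421187_at 1198, 490, 43.2 and 345 against 316, 353, 137 and 339. Expansion 1 was the highest of all 8 samples on each of the 4 probe sets, and its log2 difference to its partner was 1.83, 1.55, 3.01 and 1.90 for 1421186_at, 1421188_at, 1460067_at and 1421187_at. In pair 4 the same 4 probe sets gave 1.04, -0.17, -0.59 and 0.03, and in pair 3 -1.30, 0.50, 0.48 and -1.56, so they did not share a sign there. Expansion 3 was not above background on 1421187_at, which bounds that value at 2.12-fold lower or more.

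The subclass difference of Ccr2 was -1.97 for 1421186_at (SE 0.95, 95% interval -4.03 to 0.08, limma adjusted p = 0.789) and -3.06 for 1460067_at (SE 0.84, 95% interval -4.87 to -1.24, limma unadjusted p = 0.0031, adjusted p = 0.336). For 1421187_at it was -2.26 (limma adjusted p = 0.672) and for 1421188_at -1.0 (limma adjusted p = 0.9997). With sort purity as a covariate, 1421186_at gave -0.17, 1421187_at -1.24, 1421188_at -1.70 and 1460067_at -3.88. With no replicate block 1421186_at gave -1.28, 1460067_at -1.19, 1421187_at -2.57 and 1421188_at -1.45. Only 1460067_at passed without pair 3, at -3.32 (limma adjusted p = 0.02). Polyclonal sample 1 gave the lowest signal of the 8 samples on that probe set, 119, so its large difference in pair 1 holds both a high expansion and a low partner. The alpha4-low differences were -0.14, 0.55, -0.05 and -0.35 for 1421186_at, 1421188_at, 1460067_at and 1421187_at (limma adjusted p of 0.989 to 0.998).

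Cx3cr1, the fractalkine receptor of vessel-patrolling effector memory cells and monocytes, had the widest range over the clones. Its probe set 1450020_at read 4284, 2513, 59.2 and 239 in expansions 1 to 4 and 745, 841, 1009 and 153 in the partners. Expansions 1 and 2 lay above all 4 polyclonal samples, expansion 3 was below its array's background of 61.9, and both samples of mouse 4 were low. The values ranged at least 64.1-fold over the expansions, taking expansion 3 at its background, and 6.43-fold over the polyclonal samples. The SD of log2 values was 2.85 over the expansions, with expansion 3 at its measured signal, and 1.24 over the polyclonal samples.

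In pairs 1 to 4 the log2 differences of Cx3cr1 were 2.52, 1.57, -3.98 and 0.63. The expansion was thus higher in 3 of 4 pairs and at least 15.2-fold lower in pair 3, a bound because the expansion was not above background there. The alpha4-low difference was -0.59 (SE 0.80, 95% interval -2.32 to 1.13, limma adjusted p = 0.99), and 1.10 without pair 3. The subclass difference was -3.11 (SE 1.59, 95% interval -6.57 to 0.35, limma adjusted p = 0.832), the widest interval of the 12. It was -0.08 with sort purity as a covariate and -1.42 without pair 3.

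The second Cx3cr1 probe set, 1450019_at, was not tested because of its low signal. It read 50.5, 54.9, 14.8 and 42.1 in the expansions and 45.3, 3.38, 5.95 and 2.43 in the partners. Expansions 1, 2 and 4 were above background and the other 5 samples were not, so expansion 3 was below background on both Cx3cr1 probe sets. The bounds were at least 1.04-fold, 1.23-fold and 1.03-fold higher in the expansion in pairs 1, 2 and 4, and none above 1 can be given for the alpha4-low pairs as a group.

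Expansion 3, the lowest sample for Cx3cr1 1450020_at and for 2 of the 4 Ccr2 probe sets, also had the lowest summed signals of 2 other cell types that carry these receptors. Of 10 myeloid and dendritic cell markers, all 10 had a probe set and 7 to 9 were above background on each array, led by Lyz2 and Csf1r, while Cd14 was above background on 3 arrays and Itgam on 1. Their summed signal was 4246 in expansion 1, 1859 to 4435 in the alpha4-low expansions and 2056 to 3449 in the polyclonal samples, with the lowest value, 1859, in expansion 3. In the alpha4-low pairs 5 of the 8 tested myeloid markers had a positive and 3 a negative difference, and 0 passed. Of 8 NK cell markers, 6 had a probe set and 2 to 5 were above background on each array. Their sum was 6231 in expansion 1, 435 to 4873 in the alpha4-low expansions, again lowest in expansion 3, and 2468 to 32910 in the polyclonal samples, where Klra8 and Klre1 made up most of it. Among the polyclonal samples the NK sum was highest in sample 4, where Cx3cr1 1450020_at was lowest, at 153. The sum was lowest in sample 3, where that probe set was highest, at 1009. The defining NK marker Ncr1 was above background on 0 of the 8 arrays. The part of myeloid or NK cells in the Cx3cr1 and Ccr2 values was not tested.

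**Figure D3:**
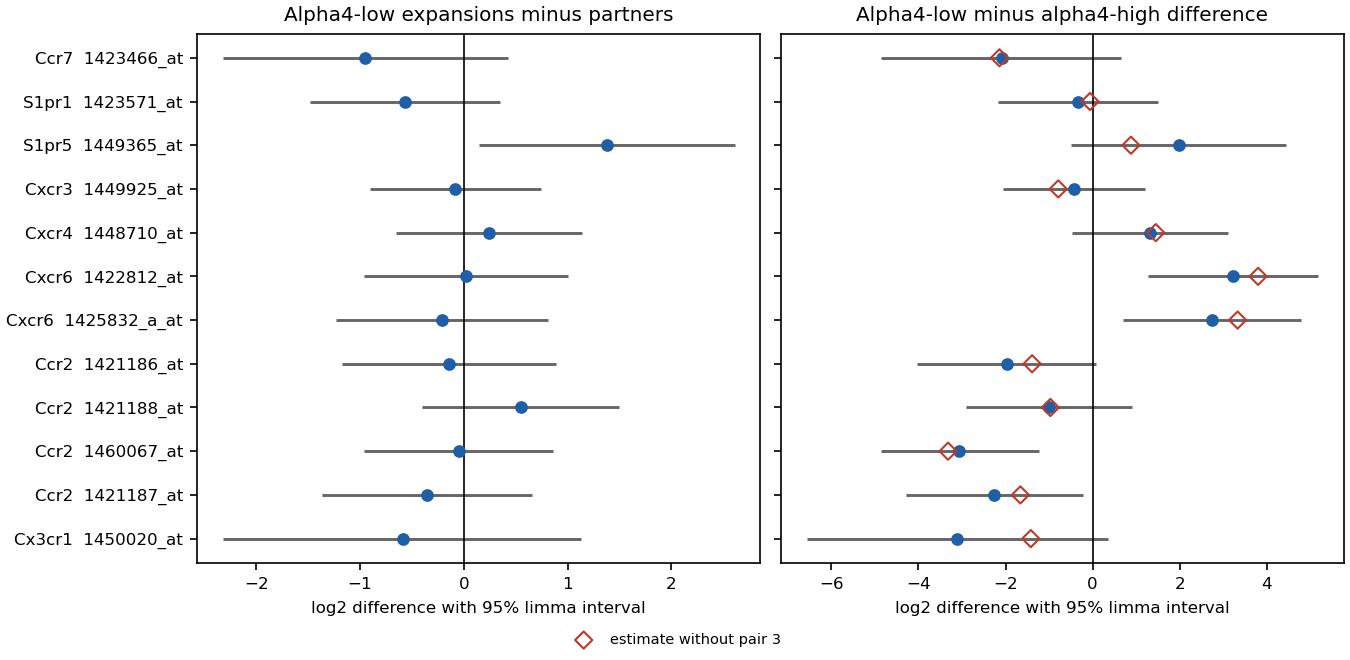
limma estimates with 95% intervals, in log2 units, of the alpha4-low difference (left) and of the alpha4-low minus alpha4-high difference (right) for the 12 tested receptor probe sets, with the estimate without pair 3 as an open diamond. Cxcr6 lies to the right of 0 and Ccr2 and Cx3cr1 to the left in the right panel, with 0 of 12 past an adjusted p of 0.05 when all pairs are used.

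Taken by pair, the receptors stood furthest from their partners in pairs 1 and 3. The median absolute log2 difference over the 12 tested probe sets was 1.69 in pair 1 against 0.47 over all tested probe sets, 0.54 against 0.61 in pair 2, 1.13 against 0.58 in pair 3 and 0.44 against 0.44 in pair 4. At least a 4-fold difference was found in pair 1 for 4 of 12 (both Cxcr6 probe sets, Ccr2 1460067_at and Cx3cr1), against 5.76% of all tested probe sets. In pair 3 there were 2 of 12 (S1pr5 and Cx3cr1), against 4.68%. In pair 2 there were 0 of 12 against 6.37%, and in pair 4 0 of 12 against 3.18%.

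The signed medians were 0.75 in pair 1, 0.07 in pair 2, -0.99 in pair 3 and 0.02 in pair 4, beside 0.06, -0.22, 0.01 and 0.00 over all tested probe sets. Over the 4 pairs the median difference of the 12 was 0.10 against -0.04 for all probe sets, and for the alpha4-low pairs -0.11 against -0.07. For the subclass difference it was -0.72 against -0.10. With 6 of the 12 probe sets belonging to Cxcr6 and Ccr2, these medians weigh those genes most. The same holds for the absolute medians and the 4-fold counts above.

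The SD of log2 values was larger over the 4 expansions than over the 4 polyclonal samples for 8 of 12 probe sets, against 58.9% of all tested probe sets. Cx3cr1, both Cxcr6 probe sets, Ccr2 1421186_at and Ccr2 1421187_at had the larger surpluses, while Ccr7, S1pr1, S1pr5 and Ccr2 1460067_at varied more among the polyclonal samples. The median SD of the receptors was 0.94 over expansions and 0.57 over polyclonal samples, and over all tested probe sets 0.63 and 0.55.

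**Figure D4:**
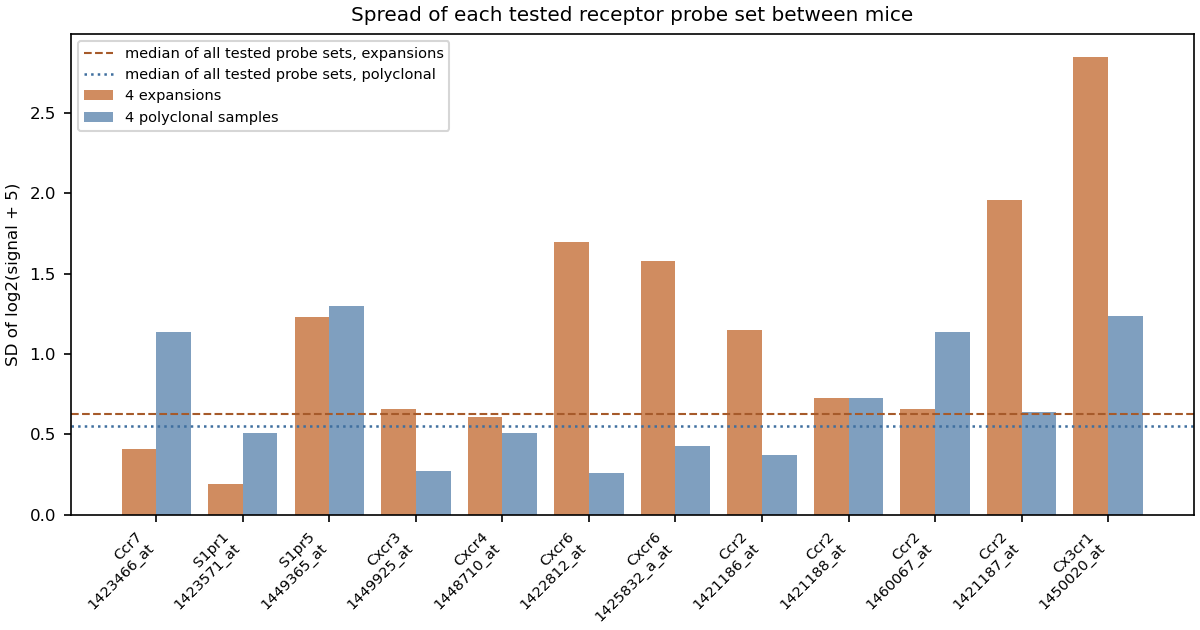
SD of log2(signal + 5) over the 4 expansions and over the 4 polyclonal samples for each of the 12 tested receptor probe sets, with the medians over all tested probe sets as dashed and dotted lines. Cx3cr1 reaches 2.85 over expansions and Cxcr6 1422812_at 1.70 against 0.26 over polyclonal samples, while S1pr1 stays at 0.19 over expansions.

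The patterns most like each receptor over the 8 arrays were found by Pearson correlation of log2 values among other singly named genes, given as a description over 4 pairs of related samples. For Ccr7 they were Ccdc88a (0.986), Itpa (0.978) and Dip2c (0.976), and for S1pr1 Il21r (0.959), Ppp1r12b (0.959) and Parp11 (0.948). For S1pr5 they were Usp49 (0.962), Rprd1a (0.961) and Mysm1 (0.961), and for Cxcr3 Rac2 (0.981), Atp5g1 (0.977) and Ift27 (0.971). Rac2 encodes a GTPase of the cytoskeleton that acts in T cell migration, and Il21r the interleukin-21 receptor.

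For Cxcr4 the nearest patterns were Wwp1 (0.965), Socs6 (0.956) and Timm29 (0.955), and for Cxcr6 Prkd3 (0.984), Kctd1 (0.982) and Slc44a1 (0.979). For Ccr2 they were Gzma (0.941), Ifit1 (0.939) and Sgo2a (0.938), and for Cx3cr1 Rasa1 (0.976), Slc25a25 (0.97) and Evi2a (0.97). Gzma encodes granzyme A, a protease of cytotoxic granules, and Ifit1 an interferon-induced protein. Such values are the highest over all tested probe sets on 8 arrays and are high by that choice.

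Of 21 other chemokine and chemoattractant receptor genes, 19 had a probe set and 6 were tested on their brightest, and 0 passed in either direction in the alpha4-low pairs or in the subclass difference. Their median alpha4-low difference was -0.24. Cxcr5, the receptor for entry into B cell follicles, read 587, 29.3, 185 and 46.8 in expansions 1 to 4 and 120, 290, 414 and 91.5 in the partners, a pattern that was high in expansion 1 and below the partner in the other 3. Its fitted alpha4-low difference was -1.71 and its subclass difference -3.96 (limma adjusted p = 0.747 and 0.266), with expansion 2 below background. The gut-homing receptor Ccr9 had an alpha4-low difference of -1.06, Ccr6 one of -0.49 and the oxysterol receptor Gpr183 one of 0.63 (limma adjusted p of 0.975 to 0.989). Of the alpha4-low expansions, Ccr9 was above background in expansion 4 alone, and polyclonal sample 4 was below background. The other tested probe set of Gpr183 gave an alpha4-low difference of 0.03.

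Of 14 ligand genes of the 8 receptors, 10 had a probe set and 4 were tested, and 0 passed. Cxcl10, a ligand of CXCR3, had a fitted alpha4-low difference of -1.51 (limma adjusted p = 0.886), but of the 3 alpha4-low expansions it was above background in expansion 3 alone. The CCR2 ligand Ccl8 had -1.40 (limma adjusted p = 0.966), with expansion 4 below background. The CXCR6 ligand Cxcl16, above background in all samples, had 0.52 and Cxcl11 had 0.07.

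Of 17 genes of the sphingosine 1-phosphate pathway, 16 had a probe set and 12 were tested, with 0 past the threshold in either direction and a median alpha4-low difference of -0.21 beside the -0.07 of all tested probe sets. S1pr4, a further receptor for the lipid, read 213, 199 and 208 in expansions 2 to 4 and 786, 586 and 202 in the partners, so the expansions were alike and the partners of pairs 2 and 3 were higher. Its alpha4-low difference was -1.12 (limma adjusted p = 0.941). Klf2, the activator of S1pr1, read 1762, 1515, 525 and 342 in expansions 1 to 4 and 902, 3253, 1281 and 475 in the partners, an alpha4-low difference of -0.95 (limma adjusted p = 0.965). Arhgef1, a guanine exchange factor downstream of such receptors, had -0.98, and Cd69, whose product draws S1PR1 off the cell surface, had 0.85 (limma adjusted p = 0.966 and 0.965).

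Cd69 was higher in each alpha4-low expansion than in its partner, at 6860, 9675 and 12113 against 3136, 7559 and 5823, and lower in expansion 1, at 4267 against 5290. The groups of 3 overlapped, since polyclonal sample 3 exceeded expansion 2.

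Of 18 genes that work with these receptors in lymph node homing, 16 had a probe set and 12 were tested, with 0 past the threshold and a median alpha4-low difference of -0.24. After Klf2 the largest alpha4-low differences were those of the integrin subunit Itgb7, at -0.92, the glycosyltransferase Gcnt1, at -0.78, and St3gal6 and Cd44, both at 0.67 (limma adjusted p of 0.967 to 0.989). These values are of the brightest probe sets. The other tested probe sets gave -0.07 and -0.33 for Cd44, and 0.31, 0.47 and -0.67 for St3gal6. Gcnt1 was above background in expansions 1 and 4 and in polyclonal samples 1, 3 and 4 alone. Itgb1, the partner chain of integrin alpha4, was named after its values were seen. Expansion 1 read 1216 and polyclonal sample 1 read 4726, and its subclass difference was 2.17 (limma adjusted p = 0.566).

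Of 33 genes of chemokine receptor signalling and the motility machinery, 31 had a probe set and all 31 were tested, again with 0 past the threshold and a median alpha4-low difference of -0.17. Rgs16, a brake on chemokine receptor G proteins, came nearest. It read 657, 4.27, 28.1 and 8.27 in expansions 1 to 4 and 70.7, 208, 568 and 42.7 in the partners, and was below background in all 3 alpha4-low expansions. Against background the bound on the mean of the 3 alpha4-low pairs was at least 3.41-fold lower in the expansions, and for pairs 2, 3 and 4 it was 3.75-fold, 8.56-fold and 1.23-fold. The fitted difference was -3.49 (limma adjusted p = 0.0758), with a subclass difference of -6.62 (limma adjusted p = 0.0853). The related Rgs1 read 13830, 9693, 178 and 1768 in the expansions and 4384, 4785, 5400 and 2632 in the partners, lowest in expansion 3, where Cx3cr1 was also lowest.

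The actin regulator Coro1a had an alpha4-low difference of -1.40 and the receptor kinase Grk5 one of -1.08, with subclass differences of -3.03 and -4.12 (limma adjusted p = 0.454 and 0.336). Rgs10, named after its values were seen, read 683 in expansion 1 and 8207 in its partner, with a subclass difference of 3.85 (limma adjusted p = 0.0856).

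Of 12 transcription factor genes known to regulate such receptors, 11 had a probe set and were tested. The count past the threshold was 0 in the alpha4-low pairs and 1, Satb1, in the subclass difference. The chromatin organiser Satb1 read 1360, 27314, 24261 and 29585 in expansions 1 to 4 and 21208, 19771, 12576 and 19623 in the partners on its brightest probe set, with a subclass difference of 4.63 (limma adjusted p = 0.0472). Its alpha4-high side is 1 pair. The call was lost with a pseudocount of 1 (limma adjusted p = 0.0543), no filter (0.053), quantile normalization (0.0603), no intensity trend (0.246) and purity as a covariate (0.217), at differences of 4.30 to 4.63. Like Cxcr6, Satb1 was lowest in expansion 1, but unlike Cxcr6 it was high in expansion 3. Tbx21, which encodes T-bet, and Runx3 had alpha4-low differences of -0.62 and -0.41 (both with a limma adjusted p = 0.989), and that of Satb1 was 0.67 (limma adjusted p = 0.966). The effector regulator Zeb2, named after its values were seen, read 425 in expansion 1 and 31.5, below background, in its partner, with a subclass difference of -3.58 (limma adjusted p = 0.383).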

How the data were processed

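RNA from 8 sorted CD8 memory samples was hybridised to 1 array each. The deposited table holds linear intensity values per probe set, made by the authors; per the submitters' processing notes the tool was MAS5. No version of MAS5 was given in the sources used here. Each array has a trimmed mean of 500 after removal of 2% at either end, so no scaling was added. Per the labels' protocols, RNA was extracted in parallel and amplified in 2 rounds, which favours 3′ ends. The arrays carry no counts, and the number of arrays limits the precision.

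Tests used log2(value + 5). After leaving out 64 control probe sets and probe sets with a mean at or below the median, 22518 of 45101 were tested with limma 3.58.1 in R 4.3.3 (lmFit, eBayes with an intensity trend, two-sided, Benjamini-Hochberg over all tested probe sets, threshold 0.05) and mouse as a fixed block. The all-pairs model had 3 residual degrees of freedom. The model with separate coefficients for the alpha4-high and alpha4-low expansions had 2. Purity as a covariate takes up a further residual degree of freedom in each. Purity differed most between partners in pair 2, 95 against 75%, and pair 3, 96 against 66%. The purity estimates therefore rest mostly on those pairs. The pairing comes from the labels, since partners are from the same mouse; deviations from group means correlated between partners at 0.374, 0.0771, 0.214 and 0.338. Models were tested on simulated data.

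The background level of an array is the 95th percentile of its signals on 27 bacterial probe sets. A probe set not above it on any array compared has only a bound, the mean log2 signal of the brighter side against the mean of the higher of background and signal. Gene names came from the platform annotation (34945 probe sets with 1 gene, 932 with several, 9211 with none). The text names every member probe set, the 3 genes most correlated with the brightest probe set of each member, genes of each list past the threshold and up to 4 with the largest alpha4-low difference. The members, gene lists and marker lists were chosen with earlier results of these data known. Promoters came from RefSeq; those of Ccr7 and S1pr1 were not used here. Figures were drawn with matplotlib 3.10.9. Alternatives covered the pseudocount, filter, scaling, variance trend, block, purity and omission of each pair.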

Additional observations from a re-analysis of the deposited data

Results flagged for a closer look

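Each of the 13 receptor probe sets was checked in the 4 polyclonal samples for a sample far from the other 3 of its group, by the gap to its nearest neighbour as a share of the group's range; a share above Dixon's 95% critical value marks it. Chance marks about 1 in 20 groups. Polyclonal sample 3 stood apart on Ccr2 1421187_at, with a share of 0.883. It read 137 there, against 316, 353 and 339 in polyclonal samples 1, 2 and 4. Polyclonal sample 4 stood apart on Cx3cr1 1450020_at, with a share of 0.838. It read 153 there, against 745, 841 and 1009 in polyclonal samples 1 to 3, and its own expansion read 239.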

How the results depend on the processing

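Under 11 alternatives, 342 of 384 recomputed receptor values kept their direction and side of the threshold, 39 changed sign and 3 passed the threshold, those named above without pair 3. The number of receptor probe sets past the threshold was 0 under every alternative in the all-pairs and the alpha4-low comparisons, and 0 to 3 over the omissions for the subclass difference. Over all tested probe sets, the count was 0 to 14 when a pair was left out for all pairs, 14 to 157 against 12 for the alpha4-low pairs and 64 to 277 against 12 for the subclass difference. For the alpha4-low pairs the count was 6 with quantile normalization, and 0 with no intensity trend or no replicate block. For the subclass difference it was 0 with a pseudocount of 1, with quantile normalization or with no intensity trend, 29 with a pseudocount of 32, 25 with no filter and 143 with no replicate block. In the paired design the block changed no receptor's call. No filter and no intensity trend leave an estimate as it was, as does omission of pair 1 for the alpha4-low estimate. Those of the 384 values could not change sign. Sign changes over all pairs came with purity as a covariate for Ccr7 (0.30), S1pr5 (-0.10) and Cxcr3 (-0.05), and with quantile normalization for Cxcr3 (-0.06) and Cxcr4 (0.07). In the alpha4-low pairs they came with purity for S1pr1 (0.09), S1pr5 (-0.13), Cxcr6 1425832_a_at (0.41), Ccr2 1421186_at (1.19), Ccr2 1421187_at (0.40) and Cx3cr1 (1.64), with quantile normalization for Cxcr6 1422812_at (-0.03) and Ccr2 1460067_at (0.16), and with no replicate block for those 2 (-0.08 and 0.42) and Ccr2 1421186_at (0.03). In the subclass difference they came with purity for S1pr1 (0.55) and S1pr5 (-0.07) and with no replicate block for S1pr1 (0.27). Leaving out each pair in turn gave, over all pairs, -0.95 to 0.10 for Ccr7 1423466_at, -0.01 to 1.38 for S1pr5 1449365_at, -0.18 to 0.20 for Cxcr3 1449925_at, -0.35 to 0.24 for Cxcr4 1448710_at, -1.27 to 0.02 for Cxcr6 1422812_at, -0.14 to 0.90 for Ccr2 1421186_at, -0.05 to 1.15 for Ccr2 1460067_at, -0.35 to 0.80 for Ccr2 1421187_at and -0.59 to 1.57 for Cx3cr1 1450020_at. In the alpha4-low pairs it gave -0.44 to 0.13 for Cxcr3 1449925_at, -0.30 to 0.59 for Cxcr6 1422812_at, -0.70 to 0.38 for Cxcr6 1425832_a_at, -0.73 to 0.44 for Ccr2 1421186_at, -0.32 to 0.22 for Ccr2 1460067_at, -0.76 to 0.25 for Ccr2 1421187_at and -1.68 to 1.10 for Cx3cr1 1450020_at. The cause of these changes was not tested. Signals near background limit Ccr7 and the second Cx3cr1 probe set.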
